A study of Mus musculus with 8 samples.

Results

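Pax6 binding at 50 genes of glycolysis, the tricarboxylic acid (TCA) cycle and their linked reactions was examined in alphaTC1 cells, a line of glucagon-secreting alpha cells from mouse pancreas. Chromatin immunoprecipitation with sequencing (ChIP-seq) recovers DNA bound by a protein, here with a Pax6 antibody, after treatment of the cells with antisense oligonucleotides. In the control knockdown (control KD) the oligonucleotides carried a scrambled sequence, and in the Paupar knockdown (Paupar KD) they were directed against Paupar, a long non-coding RNA transcribed beside Pax6. Each group had 2 Pax6 ChIP libraries, described by the submitters as biological duplicates, and 2 input libraries that were not analysed here. The 50 genes were taken as a list, and a Pax6 site belonged to a gene if the authors' annotation gave it that symbol. By this rule 86 of 26244 sites, at 39 of the 50 genes, were members, and 11 genes had no site. The rule used no measured value. Each signal was the authors' mean over a group's libraries, on a log2 scale and called a concentration, with no value per library, so no standard deviation could be given. Signal was averaged over many cells, so binding in fewer cells and weaker binding per cell cannot be told apart. RNA was not analysed here, and neither the level of Paupar nor that of the member genes is known from these files.

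Glycolysis turns glucose into pyruvate in the cytosol, and lactate dehydrogenase interconverts pyruvate and lactate. Pyruvate enters the mitochondrion and is oxidised through pyruvate dehydrogenase and the TCA cycle, or is carboxylated by pyruvate carboxylase, the product of Pcx. Shuttles built from malate and glycerol phosphate dehydrogenases carry reducing equivalents from the cytosol into the mitochondrion. In the islet, glucose metabolism is linked to hormone release, and Ldha, which beta cells keep low, is expressed in alpha cells. Pax6 is a transcription factor with a paired domain and a homeodomain that endocrine cells of the islet need.

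Sites near gene starts were the commonest kind among the members, and the sequences of 3 of them are shown as examples, chosen by signal and position. Of 8 member sites with a mean concentration of 5.5 or more that lay wholly upstream of a RefSeq start, 4 were also upstream of the start in the authors' annotation. Of these, Pfkfb2 was left out because a second RefSeq start of the same gene lay beside the site. Starts of other genes were not part of this choice. Gm52500 starts within 1 kb of the Pfkfb3 site and its span covers that site, and Styxl1 starts within 1 kb of the Mdh2 site. The 3 sequences are printed 5′ to 3′ on the minus or plus strand of the gene, from RefSeq promoter windows of the GRCm38.p6 build (mm10), with any match to CACGTG, the E-box, in capitals.
Pfkfb3, chr2:11502106-11502205, minus strand: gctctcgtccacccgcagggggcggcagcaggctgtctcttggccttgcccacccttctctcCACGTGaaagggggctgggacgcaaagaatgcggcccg
Idh1, chr1:65179196-65179295, minus strand: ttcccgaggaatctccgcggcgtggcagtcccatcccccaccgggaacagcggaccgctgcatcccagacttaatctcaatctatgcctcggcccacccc
Mdh2, chr5:135778533-135778632, plus strand: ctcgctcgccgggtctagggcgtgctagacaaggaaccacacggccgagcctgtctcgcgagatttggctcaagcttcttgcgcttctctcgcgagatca
The sites ended 15, 53 and 16 bases before the RefSeq start of Pfkfb3, Idh1 and Mdh2. Their GC content was 68%, 64% and 61%. The Pfkfb3 sequence was the only one to hold a CACGTG, also among the 8 sites (Idh1, Mdh1, Mdh2, Pfkfb2, Pfkfb3, Pkm, Suclg1 and Tpi1). Peak summits, defined below, lay at the 3 printed sites in Paupar KD libraries only. At Pfkfb3 the single summit was in Paupar KD replicate 2 (score 2.49). Tpi1 and Suclg1, which are not printed, had a summit in all 4 libraries, so the 3 need not be typical.

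RefSeq promoter windows, 250 bases before to 50 bases after a start, were held for 48 of the 50 genes, all but Gpd1 and Idh3a, with 76 windows in all. On both strands, none of the 76 windows held TTCACGC, the core of the Pax6 paired domain consensus, against 1.26% of 32851 windows of the same length over all genes. None held the palindromic homeodomain site made of TAAT and ATTA with 3 bases between them, against 0.487% of all windows. At shares this low, 0 among 76 windows is unremarkable for either motif. CACGTG was in 10 member windows (13.2%) against 7.15% of all windows. These shares count windows and not genes, 76 windows at 48 member genes and 32851 at 27025 genes in all. Windows of a gene with several starts can overlap and count a match more than once. Ogdh windows at 6292308 to 6292607 and 6292329 to 6292628 of chromosome 11, for example, both held CACGTG. The shorter ACGTG, the core of the hypoxia response element, which any CACGTG also contains, was in 31 member windows (40.8%, at 22 genes) against 19.6% of all windows. Member windows had a median GC content of 59.5% and all windows 52.7%. Of the 16 member windows that overlapped a Pax6 site, 6 held ACGTG (37.5%), against 28.2% of the 2500 such windows over all genes. These matches describe letters in a window and no binding.

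After Paupar KD, 3 of the 86 member sites were higher and 0 were lower at a false discovery rate (FDR) below 0.05, per the authors' deposited table. Over all sites the same rule called 3.26% higher and 0.846% lower, and 3 of 86 is 3.49%, so the share of calls among the members was near that of the whole table. At an unadjusted p below 0.05, 6 member sites were higher and 3 lower, per the authors' deposited table, against 10.7% and 6.67% of all sites. At an FDR below 0.01 the member counts were 0 and 0 (1.39% and 0.137% of all sites), and at an FDR below 0.1 they were 5 and 1 (4.99% and 1.80%). The median log2 change, Paupar KD minus control KD, was 0.05 over the member sites and -0.03 over all sites, per the authors' deposited table, with 45 member sites above 0 and 41 below. Promoters, within 3 kb of a start in the authors' classes, held 41 of the 86 sites (47.7%) against 27.5% of all sites. Introns held 13 (15.1% against 36.8%) and distal intergenic sequence 30 (34.9% against 28.9%). The other sites were 1 in a 3′ UTR (Hk3) and 1 downstream of a gene (Pgam1). The 41 promoter sites had a median change of -0.24 and the 7216 promoter sites of all genes -0.23, whereas the 45 sites elsewhere had 0.16 and the 19028 such sites of all genes 0.08, per the authors' deposited table. The plot of change along signal shows the members spread over the cloud of all sites.

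**Figure D1:**
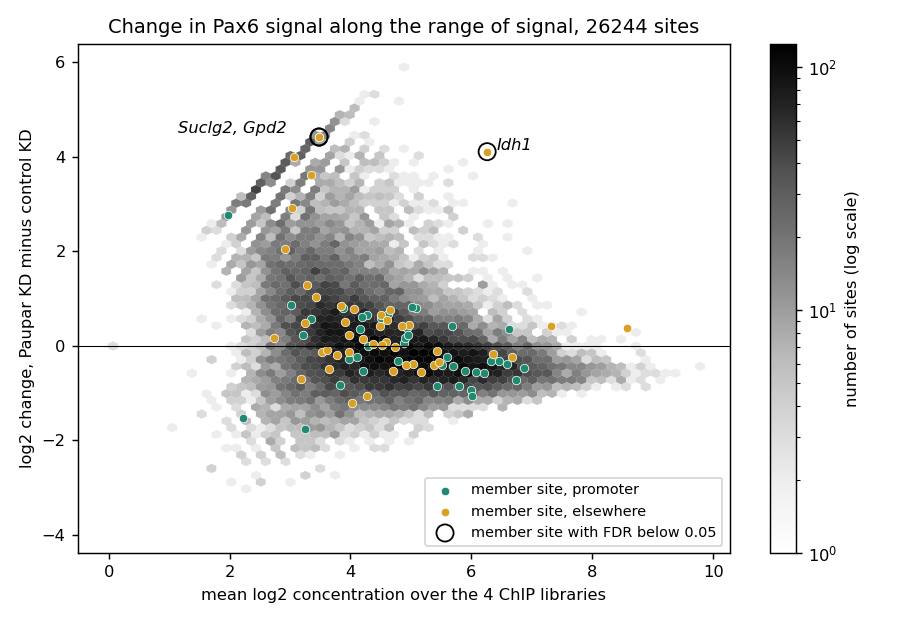
Log2 change (Paupar KD minus control KD, y axis) against the mean log2 concentration over the 4 ChIP libraries (x axis) for 26244 sites in grey, darker where more sites fall, with the 86 member sites as points coloured by place. The 3 circled sites have an FDR below 0.05; Suclg2 and Gpd2 coincide on the diagonal line of sites whose control KD value is the floor, and Idh1 stands at a mean of 6.26.

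The 3 called sites were all in distal intergenic sequence. Idh1 encodes the cytosolic NADP-dependent isocitrate dehydrogenase. Its called site (chromosome 1, 65154938 to 65155037, mm10), 20.5 kb downstream of an annotated start and 3.58 kb past the end of the gene, went from 3.07 in control KD to 7.18 in Paupar KD, a log2 change of 4.11 (p = 0.0021, FDR 0.0495), per the authors' deposited table. Summits, the single-base tops of peaks called in each library, lay within 250 bp of it in Paupar KD replicate 1 (score 120.0) and replicate 2 (score 42.2) and in no control KD library. The score, taken here for a −log10 q-value of the authors, ranks summits within a list, and these were ranks 233 of 15611 and 1494 of 17942. The FDR sat just inside the threshold: of 24 sites with a mean of 6 to 6.5 and a change of at least 2, the Idh1 site had the 3rd largest change, but only 6 had a larger p, and the median p was 1.03e-05, per the authors' deposited table. How far the libraries of a group differed there cannot be seen from group means. The nearest protein-coding genes besides Idh1 were D630023F18Rik and Pikfyve, each 31.6 kb away, and then the lens gamma-crystallin genes, with Cryga at 51.6 kb, Crygb at 72.6 kb, Crygc at 81.4 kb, Crygd at 91.5 kb and Cryge at 103 kb.

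Suclg2 encodes the GTP-forming beta subunit of succinyl-CoA ligase in the TCA cycle. The called site given its name (chromosome 6, 95886834 to 95886933), 168 kb upstream and inside the span of the predicted gene Gm32009, had a control KD value of -0.01, the floor, beside 4.42 after Paupar KD (FDR 0.0228), per the authors' deposited table. The only library with a summit was Paupar KD replicate 2 (score 14.7). Gpd2 encodes the mitochondrial glycerol phosphate dehydrogenase of the glycerol phosphate shuttle. The called site given its name (chromosome 2, 57211311 to 57211410), 26.2 kb upstream, likewise had a control KD value of -0.01, beside 4.41 after Paupar KD (FDR 0.0317), per the authors' deposited table. There the summit was in Paupar KD replicate 1 alone (score 18.2). The nearest protein-coding RefSeq gene was Gm52512, 4.77 kb away, with the span of Gpd2 at 26.3 kb. No fold is given for either site, since the floor sets its size; 522 sites of the whole table sat there in control KD and 119 of them were called higher. Of the 3 called sites, that of Idh1 was thus the one that had a summit in more than 1 library.

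Just outside the threshold, an Idh2 site in intron 1 of 10 (chromosome 7, 80106311 to 80106410) had 0.61 and 4.22 (FDR 0.0575), per the authors' deposited table, and Paupar KD replicate 1 was its only library with a summit. A Ldhb site 11.2 kb upstream had -0.01, again the floor, in control KD, beside 3.98 after Paupar KD (FDR 0.0657), per the authors' deposited table, although no library had a summit within 250 bp. The remaining site with a positive change and an unadjusted p below 0.05, 330 kb from a Gpd2 start, had 0.95 and 3.85 (FDR 0.147), per the authors' deposited table, with summits in both Paupar KD libraries. All 3 sites with a negative change and such a p lay at gene starts, at Mdh1, Pkm and Gapdh. The Mdh1 promoter (chromosome 11, 21572001 to 21572100) had 6.44 and 5.38 (log2 change -1.06, FDR 0.0828), per the authors' deposited table. Mdh1 encodes the cytosolic malate dehydrogenase, and Wdpcp starts within 1 kb of the same site. At the Pkm promoter (chromosome 9, 59656363 to 59656462) the concentrations were 7.05 and 6.32 (-0.73, FDR 0.167), per the authors' deposited table. The Gapdh promoter (chromosome 6, 125165684 to 125165783) had 6.40 and 5.46 (-0.94, FDR 0.181), per the authors' deposited table.

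Negative values at strong sites were the rule in the whole table, in promoters and, to a lesser extent, elsewhere. Among the 16 member promoter sites with a mean concentration of 5.5 or more, 14 had a change below 0 and the median was -0.45, per the authors' deposited table. Over all 2850 promoter sites at that level 87.2% were below 0 and the median was -0.44, per the authors' deposited table. The exceptions among these 16 member promoter sites were Mdh2 and an Aldoa site. Outside promoters, the 5 member sites at that level did not follow the rule as a set. Of these, 3 were above 0 (Ldha, Fbp1 and the called Idh1 site) and 2 below, with a median of 0.38, per the authors' deposited table. Over all 3035 such sites the median was -0.28, per the authors' deposited table. Below a mean of 4, 18 of 28 member sites were above 0 with a median of 0.50, against a median of 0.54 over all 9708 such sites, per the authors' deposited table.

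Each gene's strongest site, by mean concentration, is plotted by role. Where a pair of concentrations is given for a site here and elsewhere, control KD stands first and Paupar KD second. Over these 39 sites the median change was -0.23, as it was over the strongest sites of all 10195 genes, with 18 above 0, 21 below 0 and none with an FDR below 0.05, per the authors' deposited table. Of the strongest sites of all genes, 3.01% were called higher and 1.71% lower.

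**Figure D2:**
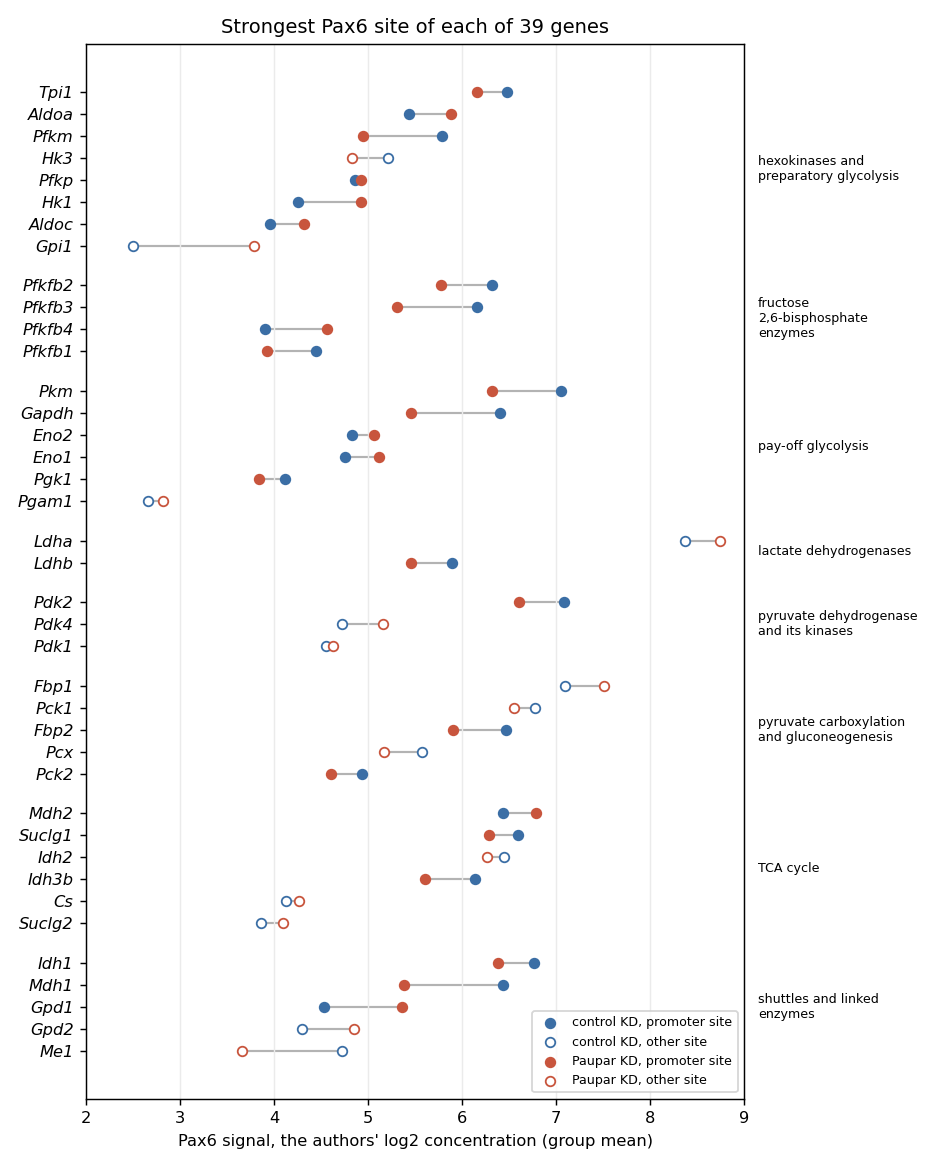
Pax6 signal at the strongest site of each of the 39 genes with a site, grouped by role; the x axis is the authors' log2 concentration, blue for the control KD mean and red for the Paupar KD mean, filled where the site is in a promoter and open elsewhere. Ldha has the highest signal (8.37 and 8.75), and the 2 values of a gene differ by at most 1.29, at Gpi1.

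The preparatory steps of glycolysis had 14 sites at 8 of 10 genes, and 0 were called. Over all sites 3.26% were called higher and 0.846% lower, shares at which 0 among so few sites is unremarkable. Tpi1, which encodes triosephosphate isomerase, had the strongest, over its start (6.48 and 6.16, FDR 0.751), per the authors' deposited table, with a summit in all 4 libraries. Aldoa, an aldolase gene, had 3 sites 87 to 224 bp downstream of starts in the authors' annotation, and the strongest had 5.44 and 5.88 (FDR 0.634), per the authors' deposited table. Pfkm, the muscle-type phosphofructokinase gene, had 5.79 and 4.95 at its promoter (log2 change -0.84, FDR 0.308), per the authors' deposited table. A stronger site inside the span of Pfkm belonged by annotation to the start of Senp1 (8.03 and 7.63, FDR 0.355), per the authors' deposited table, with a summit in all 4 libraries. Pfkp, the platelet-type phosphofructokinase gene, had 4 sites with changes of -1.21 to 0.85 and FDRs of 0.383 to 0.972, with 4.86 and 4.92 at the strongest site and 4.51 and 3.31 at that of the lowest change, per the authors' deposited table. Each of the 4 had a summit in 1 library only, and 1 lay 727 kb from the start. A further site inside the span of Pfkp belonged by annotation to Pitrm1 (5.25 and 4.90, FDR 0.806), per the authors' deposited table, with a summit in all 4 libraries. Hk1, the hexokinase gene of most tissues, had 4.25 and 4.92 at 1.34 kb upstream (FDR 0.599), per the authors' deposited table, with summits in both Paupar KD libraries alone. Hk3 had 2 sites, the stronger in its 3′ UTR (5.21 and 4.83, FDR 0.789), while the one 1.68 kb upstream had 3.88 and 2.12 (log2 change -1.76, FDR 0.365), the lowest change of any member site, per the authors' deposited table. Aldoc had 3.96 and 4.32 (FDR 0.861) and Gpi1, the glucose phosphate isomerase gene, had 2.50 and 3.78 in intron 4 of 17 (FDR 0.575), per the authors' deposited table.

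All 4 Pfkfb genes, which encode the enzymes that make and remove the allosteric activator of phosphofructokinase, had a promoter site. Pfkfb2 had 6.32 and 5.78 (FDR 0.437) and Pfkfb3 had 6.16 and 5.31 (log2 change -0.85, FDR 0.291), per the authors' deposited table. The Pfkfb3 site is the first of the printed sequences. Despite that signal, both genes had a single summit, in Paupar KD replicate 2, with scores of 2.06 and 2.49. Pfkfb4 had 3.90 and 4.56 (FDR 0.688), and Pfkfb1 had 4.45 and 3.92 (FDR 0.760) with no summit in any library, per the authors' deposited table. A second Pfkfb4 site, listed with an FDR of 1 and so apparently left out of the authors' adjustment, had a control KD value at the floor, -0.01, beside 2.77 after Paupar KD, per the authors' deposited table.

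In the pay-off steps all 6 genes had a site, 16 in all, and 0 were called (3.26% higher and 0.846% lower over all sites). Pkm, the pyruvate kinase gene, had a second promoter site with 5.71 and 5.30 (FDR 0.722), per the authors' deposited table. Its first site, the strongest of this group, had summits in control KD replicate 1 (score 7.99) and Paupar KD replicate 2 (score 4.85) alone. Gapdh, the glyceraldehyde phosphate dehydrogenase gene, had 2 further sites within its promoter class, with 4.62 and 5.43 (FDR 0.407) and 4.18 and 4.78 (FDR 0.684), per the authors' deposited table. The first of these 2 lay outside the RefSeq span of Gapdh and inside that of Iffo1. Of the sites given to Gapdh, that over the start was lower after Paupar KD in value and the 2 others higher, and none passed the threshold. Eno1, the ubiquitous enolase gene, had 7 sites over 27.6 kb with changes of -0.82 to 0.48 and FDRs of 0.656 to 0.952, per the authors' deposited table. The strongest, 44 bp downstream of a start, had 4.75 and 5.12 (FDR 0.781), per the authors' deposited table, and 6 of the 7 had a summit in 1 library only. Eno2, the neuronal enolase gene, had 2 sites, the stronger with 4.83 and 5.06 (FDR 0.877), per the authors' deposited table. Pgk1, the phosphoglycerate kinase gene, had 4.11 and 3.84 (FDR 0.903), and Pgam1, the phosphoglycerate mutase gene, had 2.66 and 2.82 at 9.59 kb from its start (FDR 0.969), per the authors' deposited table. That Pgam1 site, the only one of the gene, had no summit in any library.

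Ldha, the gene of the lactate dehydrogenase subunit that favours lactate formation, had the strongest site of all members and only that site. It lay 5.98 kb upstream in distal intergenic sequence (chromosome 7, 46835393 to 46835492), with 8.37 and 8.75 (log2 change 0.38, FDR 0.297), and its mean of 8.57 was the 62nd highest of 26244 sites, per the authors' deposited table. Every library had a summit there, with scores of 324 and 128 in control KD replicates 1 and 2 and of 416 and 401 in Paupar KD replicates 1 and 2. Within their lists these summits ranked 39 of 14311, 89 of 9983, 15 of 15611 and 23 of 17942. Ldhb, the gene of the other subunit, had 5.89 and 5.46 at its promoter (FDR 0.634), per the authors' deposited table, with a summit in all 4 libraries and scores of 6.53 to 15.3. A further Ldhb site 17.0 kb upstream had 1.55 and 3.60 (FDR 0.356), per the authors' deposited table.

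Of the pyruvate dehydrogenase group, the kinase genes Pdk1, Pdk2 and Pdk4 had sites, whereas the catalytic subunit genes Pdha1 and Pdhb and the kinase gene Pdk3 had none. The kinases phosphorylate and switch off the dehydrogenase. Pdk2 had 7.08 and 6.61 at its promoter (log2 change -0.47, FDR 0.393), the strongest promoter site of all members, per the authors' deposited table. Its summits had scores of 37.9 and 7.25 in control KD replicates 1 and 2, and of 9.56 and 15.3 in Paupar KD replicates 1 and 2. A second Pdk2 site had 4.30 and 4.28 (FDR 0.999) and no summit, per the authors' deposited table. Pdk4 had 4.72 and 5.16 at 93.4 kb upstream (FDR 0.747), and Pdk1 had 4.55 and 4.63 in intron 9 of 10 (FDR 0.965), per the authors' deposited table.

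The genes of pyruvate carboxylation and gluconeogenesis all had sites, 17 in number, and 0 were called (3.26% higher and 0.846% lower over all sites). Pck1, the cytosolic phosphoenolpyruvate carboxykinase gene, had 8 sites over 37.4 kb, the most of any member, with changes of -0.48 to 0.57 and FDRs of 0.743 to 0.965, per the authors' deposited table. The strongest, 8.96 kb downstream of the start (chromosome 2, 173162039 to 173162138), had 6.78 and 6.55, per the authors' deposited table. It was the only Pck1 site with a summit in all 4 libraries (scores of 22.4 to 55.3). Fbp1, the liver-type fructose bisphosphatase gene, had 4 sites, the strongest 20.0 kb upstream (chromosome 13, 62908254 to 62908353) with 7.09 and 7.51 (FDR 0.404), the second highest mean of the members, per the authors' deposited table. Its summits had scores of 49.0 to 151 in the 4 libraries. The neighbouring Fbp2, the muscle-type gene, had 6.47 and 5.90 at a promoter site (FDR 0.395), per the authors' deposited table, with a summit in all 4 libraries. The other Fbp2 sites were weak, with 2.53 and 3.39 (FDR 0.750) and with 3.10 and 3.33 (FDR 0.941), per the authors' deposited table. Pcx, the pyruvate carboxylase gene, had 5.57 and 5.17 in intron 2 of 20 (FDR 0.721), per the authors' deposited table, with a summit in all 4 libraries. Pck2, the mitochondrial carboxykinase gene, had 4.93 and 4.61 over its start (FDR 0.836), per the authors' deposited table.

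In the TCA cycle 6 of 10 genes had 17 sites. Mdh2, the mitochondrial malate dehydrogenase gene, had 6.44 and 6.79 at its promoter (log2 change 0.35, FDR 0.632), at the last of the printed sequences, per the authors' deposited table. Styxl1 starts within 1 kb of it, and summits lay there in both Paupar KD libraries (scores of 9.42 and 12.4) and in no control KD library. Suclg1, the alpha subunit gene of succinyl-CoA ligase, had 6.59 and 6.29 over its start (FDR 0.708), per the authors' deposited table, with a summit in all 4 libraries. A weak Suclg1 site, likewise listed with an FDR of 1, had 2.79 and 1.27, per the authors' deposited table. Idh2, the mitochondrial NADP-dependent isocitrate dehydrogenase gene, had 6 sites, 5 of them 7.87 to 28.1 kb upstream, in a cluster of which the strongest had 6.45 and 6.26 (FDR 0.837), per the authors' deposited table. That site had summits with scores of 74.2 and 31.2 in control KD replicates 1 and 2 and of 38.9 and 38.4 in Paupar KD replicates 1 and 2. The change at the 5 upstream sites lay between -0.56 and 0.01, per the authors' deposited table, beside 3.61 at the site in intron 1, whose value after Paupar KD (4.22) was below theirs (4.40 to 6.26). Idh3b, a subunit gene of the NAD-dependent enzyme, had 6.14 and 5.60 over its start (FDR 0.477), per the authors' deposited table. Cs, the citrate synthase gene, had 4.13 and 4.26 in intron 1 of 10 (FDR 0.954), and a Suclg2 site in intron 4 of 10 had 3.86 and 4.09 (FDR 0.915), per the authors' deposited table. The remaining Suclg2 site, in intron 1 of 10, had 2.83 and 3.86 (FDR 0.654), per the authors' deposited table, with no summit in any library.

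Among the shuttle and linked enzymes, the Idh1 promoter had 6.77 and 6.38 (log2 change -0.39, FDR 0.549), per the authors' deposited table, beside the called distal site described above. The summits at this promoter were in both Paupar KD libraries alone (scores of 7.27 and 12.3) although its concentration was higher in control KD. Summits in both Paupar KD libraries and in neither control KD library were found at 10 member sites (11.6%), against 8.26% of all sites. The Idh1 promoter was alone among these 10 in having a change below 0. Over all sites 397 of 2167 such sites (18.3%) had a change below 0. Summit calls and concentrations therefore did not always point the same way. A second Mdh1 site in an intron of Wdpcp had 3.63 and 4.40 (FDR 0.684), per the authors' deposited table. Gpd1, the cytosolic glycerol phosphate dehydrogenase gene, had 4.53 and 5.36 at 2.38 kb upstream (FDR 0.463), per the authors' deposited table. A site inside the Gpd1 span belonged by annotation to Gm16537 and was stronger (7.70 and 7.50, FDR 0.789, a summit in all 4 libraries), per the authors' deposited table. Gpd2 had 4.30 and 4.85 at 9.98 kb upstream (FDR 0.694), and Me1, the cytosolic malic enzyme gene, had 4.72 and 3.66 in intron 1 of 13 (log2 change -1.07, FDR 0.518), per the authors' deposited table, with summits in both control KD libraries alone. The Me1 site was the only member site with that pattern of summits (1.16%, against 1.47% of all sites).

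Summits in all 4 libraries were found at 12 of the 86 member sites (14.0%) against 20.0% of all sites, and a single library held the summit at 40 (46.5% against 43.9%). Paupar KD replicate 2, whose list of 17942 summits is the longest, was that library at 21 of the 40, which is 24.4% of member sites against 16.5% of all sites. Paupar KD replicate 1 was that library at 11 (12.8% against 13.0%), control KD replicate 1 at 8 (9.30%, against 2634 of the 26244 sites) and control KD replicate 2, with the shortest list (9983), at 0 (against 4.33%). The 12 were at Ldha, Fbp1, Pdk2, Pck1, Suclg1, 2 Idh2 sites, Tpi1, Fbp2, Gapdh, Ldhb and Pcx. No library had a summit within 250 bp of 5 member sites (5.81%, against 3.54% of all sites).

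**Figure D3:**
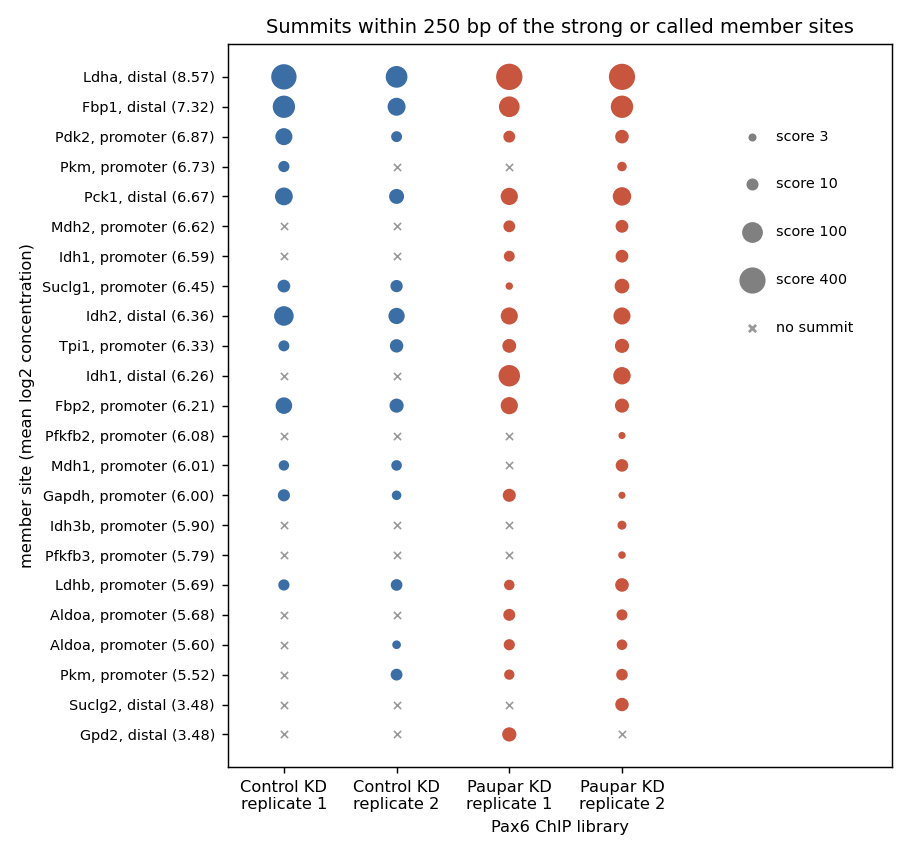
Summits within 250 bp of the 21 member sites with a mean log2 concentration of 5.5 or more and of the called Suclg2 and Gpd2 sites, 1 row a site in order of mean concentration and 1 column a ChIP library; the area of a circle grows with the logarithm of the summit's score, and a cross marks a library with no summit. The distal sites of Ldha, Fbp1, Pck1 and Idh2 have large circles in every column, and the called Idh1 site only in the Paupar KD columns.

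Summits were also counted at like signal in promoters and elsewhere. Among sites with a mean of 5.5 to 7, 37.6% of 2417 promoter sites and 76.6% of 2600 other sites had a summit in all 4 libraries. The members in that range were 6 of 16 promoter sites and 2 of 3 others. From 6 to 6.5 the members with all 4 were 4 of 6 promoter sites and 1 of 2 others, so these few did not show the difference. The Idh3b promoter (5.90 in the mean) had its only summit in Paupar KD replicate 2, with a score of 4.10. Member promoters without a summit in every library thus included sites of high concentration. This comparison was chosen after the values had been seen and was not tested.

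**Figure D4:**
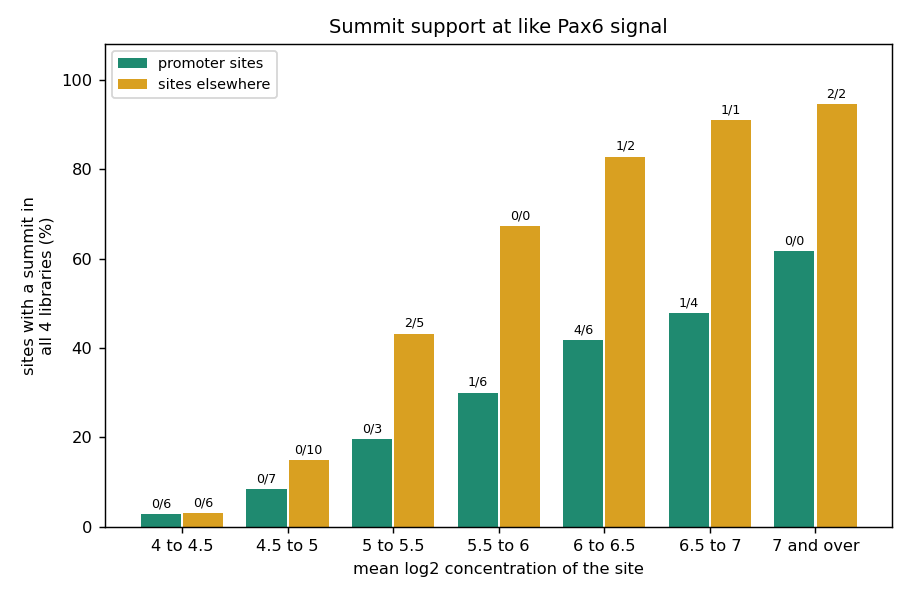
Share of sites with a summit in all 4 ChIP libraries (y axis, percent) by mean log2 concentration of the site (x axis, 7 ranges), for promoter sites in green and sites elsewhere in yellow; the numbers above the bars are the member sites with such support over the member sites in that range. In each range above 4.5 the share is lower at promoters, for example 41.7% against 82.8% from 6 to 6.5.

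The 11 genes without a site were Hk2, Pfkl, Pdha1, Pdhb, Pdk3, Aco1, Idh3a, Ogdh, Sucla2, Fh1 and Glud1. None of them held a site given to another gene within its RefSeq span, and the nearest site was 1.86 kb (Pfkl) to 132 kb (Pdha1) away, with a median of 30.5 kb. Hk2 encodes the inducible hexokinase, and its nearest site was 10.5 kb away. Glud1 encodes the mitochondrial glutamate dehydrogenase, and its nearest site was 19.0 kb away. The absence of a row says only that the table lists none.

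Of 69 other genes of these pathways, 40 had a site, 91 in all, and the FDR was below 0.05 at 2 sites with a higher and 0 with a lower value after Paupar KD, per the authors' deposited table. These were 2.20% and 0.00% of the 91 sites, against 3.26% and 0.846% of all sites, so the calls were no more frequent than in the whole table. By list, glucose transport and phosphorylation had 1 of 22 sites higher (G6pc2) and the regulators 1 of 16 (Ppargc1a). Other isozymes of glycolysis (7 sites), pyruvate entry (12), the rest of the TCA cycle (6), the pentose phosphate pathway (13) and further shuttle genes (15) had 0 called sites in either direction. At the shares over all sites, 0 in lists this small is unremarkable. Ppargc1a encodes a coactivator of mitochondrial biogenesis and gluconeogenesis, and a site over a start (chromosome 5, 51567701 to 51567800) had 1.04 and 5.27 (FDR 0.001), per the authors' deposited table. At the G6pc2 promoter, which belongs to an islet glucose phosphatase gene, the values were 2.34 and 5.54 (FDR 0.000452), per the authors' deposited table.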

How the data were processed

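Pax6 ChIP-seq was deposited for 2 control KD and 2 Paupar KD libraries. Per the submitters' processing notes, Bowtie2, MACS2, DiffBind and ChIPseeker were used on mm10. Not given in the sources used here are versions, normalization, the test and the use of the inputs. The group values in the authors' deposited table are log2 concentrations, with a log2 fold (the log base is read from the column layout, not stated), with the authors' p-value and FDR; the sign of the fold was turned so that a positive value is higher after Paupar KD. It equalled the difference of concentrations within 0.01 at every site. Sites at or below 0 in a group are said to be at the floor. The deposited score of each summit was taken for a −log10 q-value, because each list stops near 2 at its low end. For control KD replicate 2 the summit list is named with a different number, and the sample it was deposited under was used. Read depth is unknown and no interval for counting error is given. No test was run here: the table holds group means, and calls are the authors'.

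Summits within 250 bp of a site's middle were matched to it in Python 3.11.15 with pandas 2.3.3, and the matching was tested on simulated data. Coordinates are 1-based on mm10, distances run to the transcript start that the authors' annotation assigned, and RefSeq spans are of GRCm38.p6. The members, lists and naming rule were chosen with earlier results of these data known. Values were given for each member site with an FDR or p below 0.05, the 10 strongest, the 5 largest changes each way above a concentration of 1 in both groups and each gene's strongest site. Without a genome, distal sequences were not read. Alternatives were other thresholds, distances, summit limits and left-out libraries.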

Additional observations from a re-analysis of the deposited data

How the results depend on the processing

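The count of 3 higher member sites depended on the threshold and on which sites were kept. It was 0 at an FDR below 0.01 (background 1.39%), 5 at an FDR below 0.1 (4.99%) and 6 at an unadjusted p below 0.05. It was 0 of 61 within 10 kb of the assigned start (2.10% of all such sites), 2 of 83 within 100 kb (2.98%), 1 of 41 with a summit in at least 2 libraries (4.40%) and 1 of 80 above a concentration of 1 in both groups (2.52%). The last 2 settings keep only the Idh1 site. The count of 0 lower sites became 1 at an FDR below 0.1 (background 1.80%) and 3 at an unadjusted p below 0.05, and stayed 0 under the other 5 settings. The median log2 change of 0.05 was below 0 under all 4 alternatives run for it, with the median over all sites of that kind in parentheses: -0.36 with a summit in all 4 libraries (-0.29), -0.23 at each gene's strongest site (-0.23), -0.09 within 10 kb (-0.15) and -0.02 above a concentration of 1 in both groups (-0.07). The cause was not tested. The 12 sites with a summit in every library became 7 with summits within 100 bp; leaving out a library gave 13 to 16. The remaining alternatives moved no count by over 1.5 times. No paired analysis was possible because the table holds group means, with no value per library, so the authors' calls could not be remade with a library left out. A count of TTCACGC within the sites was not run, as no genome was used.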
